A study of Mus musculus with 7 samples.

Results

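Transcripts of the immunoglobulin genes and of Jchain were examined in group 2 innate lymphoid cells (ILC2s) sorted from mouse hearts. The genes were taken by symbol: heavy V genes, kappa and lambda V genes, light J segments, the constant genes of the heavy and light chains, and Jchain. Of 372 such genes in a table of 55335 genes, 143 held at least 10 counts in 1 or more of the 7 libraries and are described here. They comprised 52 of 185 heavy V genes, 75 of 160 kappa V genes, all 3 lambda V genes, 10 of 13 constant genes, 2 of 10 light J segments and Jchain. The members were thus chosen by their symbol and selected on the same counts that are reported below, and the group was picked because it was high in allografts. At its edge, 10 genes peaked at 10 to 12 counts and were kept, and 12 genes peaked at 8 or 9 counts and were left out, among them the constant gene Ighg1.

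The study compared ILC2s of the resting heart, in 3 naive libraries, with ILC2s that had entered a heart graft, in 4 allograft libraries. In the allograft group, hearts of BALB/c mice had been placed in C57BL/6 recipients, a strain combination that leads to acute rejection, and were taken after 7 days. The cells were gated by FACS on CD45, on the absence of lineage markers and on ST2, the interleukin 33 receptor, and the cells of several hearts were pooled into a library. The labels give the same 7 days for the naive hearts and state neither their strain nor age, sex, sequencing batch or the antibodies of the lineage gate. No transgene, knockout or drug is named for either group.

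An antibody consists of heavy and light chains, each with a variable part that binds antigen and a constant part. In a developing B cell 1 V gene of the heavy locus is joined to short D and J segments. At a light locus, kappa or lambda, 1 V gene is joined to a J segment only. Each B cell clone thus carries its own V genes. The heavy constant gene in use sets the class: Ighm gives IgM, Ighd IgD, the Ighg genes IgG and Igha IgA. Jchain encodes the small protein that links IgM and IgA units into polymers and is made by antibody-secreting cells. ILC2s carry no rearranged antigen receptor, and B cells are usually a target of lineage gates.

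Library totals lay between 29107326 and 53044907 counts, and a count of 0 allowed at most 3 counts, or 0.0566 to 0.103 CPM (counts scaled to a common library total) depending on the library. Naive replicate 2 stood apart from the other libraries. Mitochondrial genes took 26.5% of its counts, against 2.04% to 3.11% in the other 6 libraries. Its summed level of 11 ILC2 genes was 1146 CPM, against 11748 to 14558 CPM in the others. For genes named below whose call changes without it, the value without it is given here or in the closing section. For the other genes it is given only for some.

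V gene, light chain and Jchain transcripts were present in every allograft library and scarce in the naive ones. Summed over the heavy V genes, the level was 3.96, 0.154 and 0 CPM in naive replicates 1 to 3 and 70.9, 37.1, 47.3 and 19.0 CPM in allograft replicates 1 to 4. Summed over the kappa V genes it was 0, 5.61 and 0 CPM in naive libraries and 188, 251, 243 and 144 CPM in allografts. The lambda V genes gave 0, 0.703 and 0 CPM against 31.3, 52.0, 30.9 and 24.5 CPM. For all 3 groups the lowest allograft lay above the highest naive library. The ratio of the allograft to the naive mean was 31.8 for heavy V, 110 for kappa V and 148 for lambda V, as a description with no test. Each of these ratios rests on 1 naive library. Without naive replicate 1 the heavy V ratio was 9.15 on the log2 scale in place of 4.99, and without naive replicate 2 the remaining naive libraries held no kappa or lambda V count at all. That heavy V value rests on 7 counts of naive replicate 2 and leaves out 9 counts of Ighv1-47, a V gene below the member threshold. It is therefore higher than it would be with all 16 heavy V counts of that library.

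The constant genes differed less, because Ighm was also read in naive libraries. Their sum was 148, 41.6 and 250 CPM in naive libraries and 935, 997, 937 and 678 CPM in allografts, a ratio of 6.05. Without naive replicate 3 this ratio was 3.23 on the log2 scale in place of 2.60. In bulk RNA of sorted cells, more cells that carry a transcript and more of that transcript per cell cannot be told apart.

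**Figure D1:**
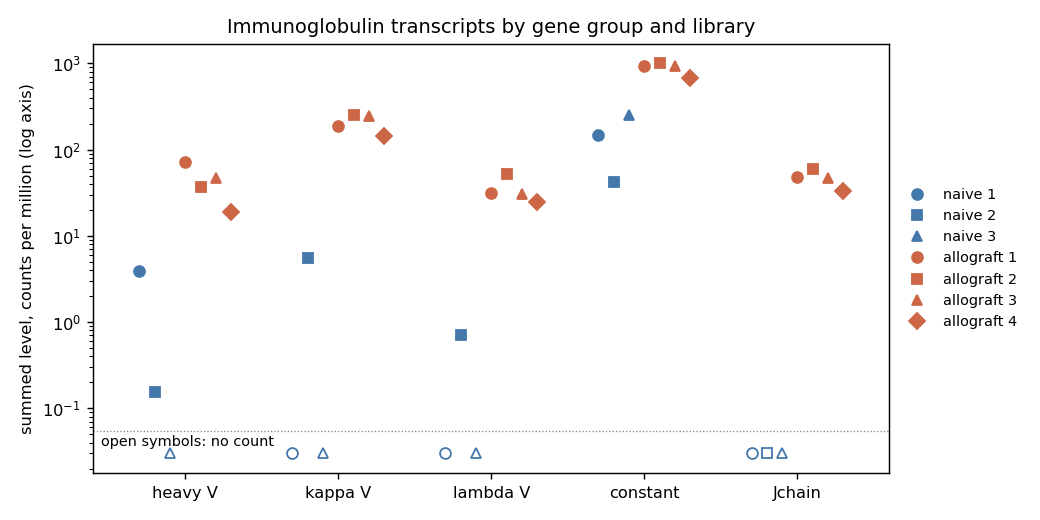
Summed CPM (log axis) of the heavy V, kappa V, lambda V and constant genes and of Jchain, 1 symbol per library, naive in blue and allograft in red, with open symbols below the dotted line for libraries without a count. The allograft libraries lie above all naive libraries in each group, and the naive libraries come closest for the constant genes, at 41.6 to 250 CPM.

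Of the 143 genes, 121 had no count in any naive library, and 71 passed the low-count filter of the fit over 17015 genes. With edgeR's quasi-likelihood test and Benjamini-Hochberg adjustment over all 17015 genes at 0.05, Jchain alone passed as higher in allografts and 0 genes passed as lower. By that rule 0.0294% of all tested genes were called higher and 0.0353% in either direction. At an unadjusted p below 0.05, 58 of the 71 were higher, against 6.41% of all tested genes. In 40 of the 71 every allograft library lay above every naive library, against 12.5% of all tested genes. Most of these genes passed the filter only through the allografts, and the genes were chosen for that contrast, so these counts support nothing further. The number of calls depended on the tool and on 1 library: the DESeq2 Wald test called 47 higher where 4.63% of all genes were called, limma on FPKM called 23 where 1.15% were, and the edgeR fit without naive replicate 2 called 13 where 3.0% were. Without naive replicate 1 edgeR called 3, where 0.51% of all genes were called. With the replicate number as a block, or without any 1 allograft, it called no gene of the table at all (0.0%). With the block, 13 of 71 immunoglobulin genes had an unadjusted p below 0.05. Without allograft replicates 1 to 4 in turn it was 24 of 39, 32 of 46, 33 of 47 and 36 of 50. The share of all genes at that level is not given for these fits, so these counts support nothing further either.

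Jchain (chromosome 5, 88519809 to 88527891, minus strand, GRCm38) had no count in any naive library and reached 48.1, 59.1, 46.6 and 33.4 CPM in the allografts. The groups did not overlap, and the allograft mean was at least 734-fold higher than the level that 3 counts per naive library would give (edgeR adjusted p = 0.0278). The call held in 8 of 13 alternative fits. It was lost with the replicate number as a block (adjusted p = 1.0) and without any 1 of the 4 allografts (edgeR adjusted p between 0.183 and 0.244).

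Among the heavy constant genes, Ighm (chromosome 12, 113418558 to 113422730, minus strand), the class that B cells carry first, was the most abundant in every library. It stood at 148, 19.7 and 249 CPM in naive replicates 1 to 3 and at 335, 364, 377 and 226 CPM in allografts. The groups overlapped, since naive replicate 3 exceeded allograft replicate 4, and the difference of 1.16 on the log2 scale (SE 0.661) did not pass (edgeR adjusted p = 0.658). Without naive replicate 2 the difference was 0.66 (edgeR adjusted p = 0.325). Igha (chromosome 12, 113254830 to 113260236), the IgA constant gene, was at 0 in all naive libraries and at 152.9, 53.6, 54.4 and 42.0 CPM in allografts. The groups did not overlap, and allograft replicate 1 stood far above the other allografts. The mean was at least 1187-fold over the naive floor, with an edgeR adjusted p of 0.0868 that missed the threshold but passed in 4 of 13 alternatives, among them the fit without naive replicate 2 (edgeR adjusted p = 0.0316).

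The other heavy classes were rare. Ighd (chromosome 12, 113406604 to 113416324), the IgD gene of resting B cells, gave 0, 0.615 and 0 CPM in naive libraries and 6.63, 0.895, 4.58 and 3.57 CPM in allografts. By CPM of the library total all 4 allografts lay above the naive libraries. This rests on 29 counts in allograft replicate 2 against 28 in naive replicate 2. The TMM factors of these libraries were 1.07 and 0.724, so their order depends on the denominator. The difference of 3.68 on the log2 scale did not pass (edgeR adjusted p = 0.680). Without naive replicate 2, the one naive library with Ighd counts, it was 10.30 (edgeR adjusted p = 0.0524). The IgG genes were read in allografts only, and not in all of them: Ighg3 gave 1.68, 0, 2.30 and 0.378 CPM (edgeR adjusted p = 0.341). Ighg2b held 42, 0, 0 and 22 counts. Ighg2c held 219 counts in allograft replicate 3 and none elsewhere.

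**Figure D2:**
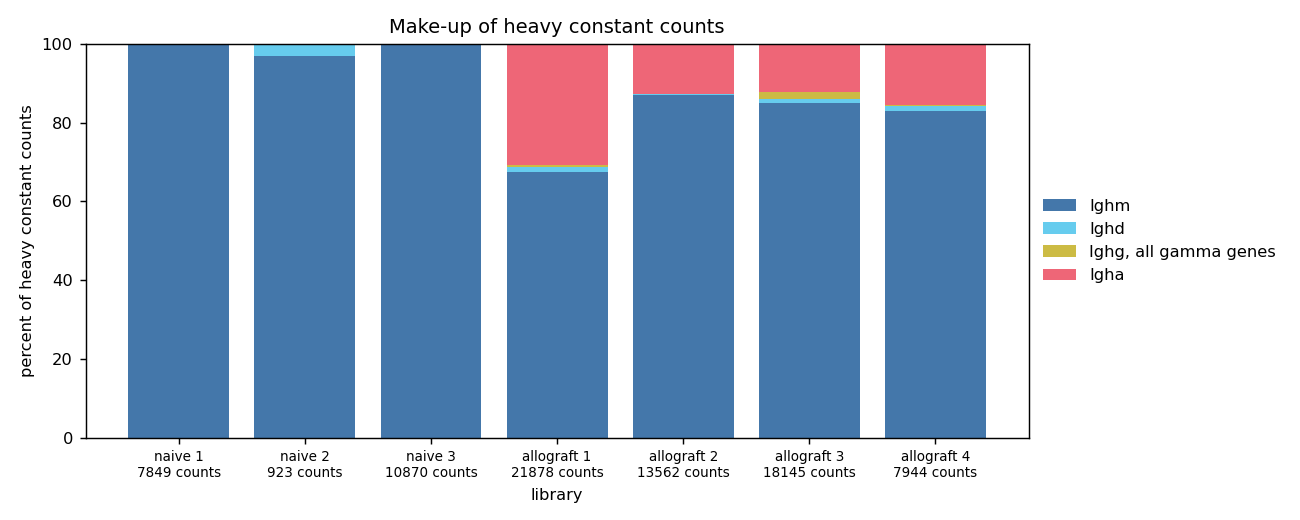
Share of each class in the heavy constant counts of a library, in percent, with the number of those counts under each bar. Ighm makes up nearly all of the naive bars, and Igha takes 12.2% to 30.8% of the allograft bars, with the highest share in allograft replicate 1.

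As shares of heavy constant counts, Ighm took 100, 97.0 and 100% in naive libraries and 67.4, 87.0, 85.0 and 82.9% in allografts. The Igha share was 30.8% in allograft replicate 1 (95% Wilson interval 30.2 to 31.4%) and 12.8, 12.2 and 15.4% in the other allografts. In naive libraries the count of 0 allowed an Igha share of up to 0.0382, 0.325 and 0.0276%. All gamma genes together took at most 1.72% of an allograft library. Among heavy constant counts Ighm thus led in each allograft, followed by Igha. These shares count constant genes only. How much of the allograft Ighm was joined to a V gene was not tested, and naive replicate 3 held 10870 Ighm counts with 0 heavy V counts.

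Light constant genes were read mostly in allografts. Igkc (chromosome 6, 70726435 to 70726966, plus strand), the single kappa constant gene, stood at 0, 14.1 and 0.711 CPM in naive libraries and at 358, 485, 435 and 351 CPM in allografts. The groups did not overlap, and the difference was 5.81 on the log2 scale (SE 2.01, edgeR adjusted p = 0.342). Without naive replicate 2 it was 10.12, the highest of 7 fits with 1 library left out, and Igkc then passed.

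The lambda constant genes lie on chromosome 16, Iglc1 at 19061618 to 19062071, Iglc2 at 19198396 to 19200351 and Iglc3 at 19065230 to 19065681. Iglc1 was at 0, 1.17 and 0 CPM against 16.1, 37.5, 18.4 and 11.6 CPM, and Iglc2 at 0, 4.66 and 0 CPM against 48.9, 48.1, 30.3 and 34.9 CPM. Iglc3 was at 0, 1.43 and 0 CPM against 15.4, 8.08, 9.77 and 8.28 CPM. In all 3 the only naive counts came from replicate 2, and none of the 3 passed (edgeR adjusted p = 0.476, 0.614 and 0.656). Without that replicate all 3 were called higher, at 12.70, 13.67 and 11.70 on the log2 scale in place of 5.17, 4.13 and 3.87. Iglj2, a lambda J segment named after its values were seen, lies within the annotated span of Iglc2, and its 22 to 48 counts per allograft cannot be told apart from reads of that gene. Iglj3p reached 10 counts in allograft replicate 3 only.

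Compared per length, Igkc exceeded Ighm in every allograft and not in naive replicates 1 and 3. Deposited FPKM of Igkc were 578, 788, 709 and 570 in allografts, against 153, 167, 174 and 104 for Ighm. In naive replicates 1 to 3 Ighm was at 68.7, 9.56 and 117 FPKM and Igkc at 0, 24.2 and 1.18 FPKM. Naive replicates 1 and 3 therefore held Ighm with little or no light chain. The Ighm level of replicate 3 lay within the allograft range, and that of replicate 1 lay below it. Ighm took 100 and 99.7% of the summed Ighm, Igkc and Iglc counts in these 2 libraries, 48.0% in naive replicate 2, and 43.3, 38.6, 43.4 and 35.8% in allografts.

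The same libraries held few heavy V counts beside their constant counts. Heavy V genes took 210 of 8059 heavy V and constant counts in naive replicate 1 (2.61%, 95% Wilson interval 2.28 to 2.98%), 7 of 930 in replicate 2 (0.753%, 0.365 to 1.55%) and 0 of 10870 in replicate 3, which allows a share of up to 0.0276%. In allografts the share was 12.5, 8.14, 9.63 and 6.50%. The 2 groups did not overlap in this share. Naive replicate 2 held 9 more heavy V counts in Ighv1-47, which missed the member threshold, so its share is understated. For kappa, the V share of V and Igkc counts was 28.5% in naive replicate 2 (25.6 to 31.5%) and 34.4, 34.1, 35.9 and 29.0% in allografts. In naive replicate 3 this share was 0 of 31 counts, which allows up to 9.68%. For lambda it was 8.84% in naive replicate 2 and 28.1, 35.7, 34.6 and 30.9% in allografts.

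**Figure D3:**
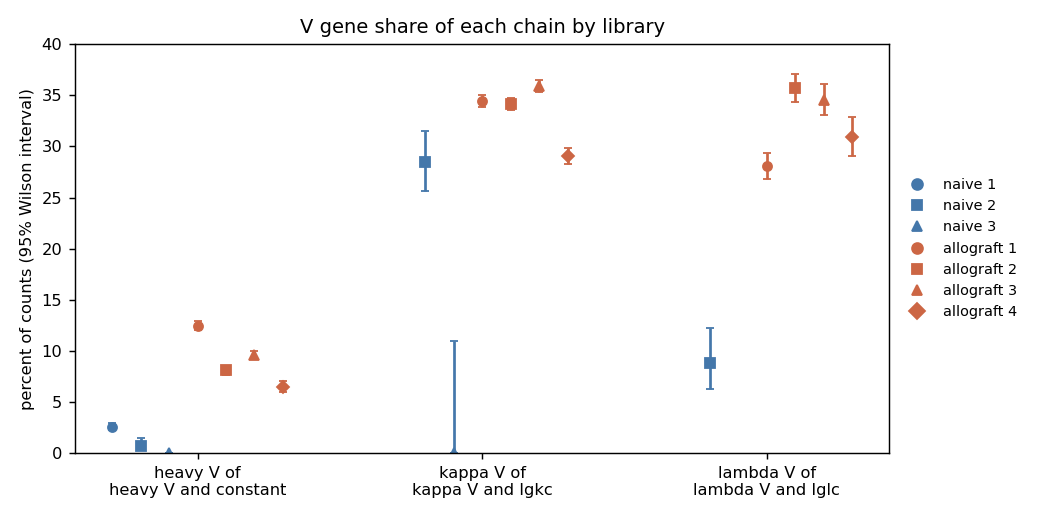
V gene counts as percent of V and constant counts for the heavy, kappa and lambda chains, 1 symbol per library with its 95% Wilson interval, naive in blue and allograft in red; libraries without any count of a chain are not drawn. Heavy V shares lie at or below 2.61% in naive libraries and at 6.50% or more in allografts, whereas the kappa share of naive replicate 2 is close to that of allograft replicate 4. The kappa share of naive replicate 3 is 0, from 31 counts.

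Heavy V genes were used unequally, and Ighv11-2 was the one heavy V gene among the 10 most abundant of all 4 allografts. Ighv11-2 (chromosome 12, 114048241 to 114048812, minus strand) had no naive count and reached 6.45, 10.2, 20.4 and 2.95 CPM. It made up 9.10, 27.5, 43.2 and 15.6% of heavy V counts in allograft replicates 1 to 4 and was the leading heavy V gene in replicates 2 and 3. The mean was at least 157-fold over the naive floor, and the test did not pass (edgeR adjusted p = 0.144). It passed without naive replicate 2 (edgeR adjusted p = 0.0437). As background, B1 cells, the innate-like B cells of body cavities that make natural antibody, recurrently use Ighv11-2 with the kappa V gene Igkv14-126 in antibodies that bind phosphatidylcholine.

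Igkv14-126 (chromosome 6, 67896172 to 67896642, plus strand) was the one kappa V gene among the 10 most abundant of all 4 allografts, and it led in 3 of them. It stood at 0, 0.725 and 0 CPM in naive libraries and at 21.0, 63.2, 68.8 and 25.3 CPM in allografts. These were 11.2, 25.2, 28.3 and 17.6% of kappa V counts. The difference was 6.97 on the log2 scale (SE 2.08, edgeR adjusted p = 0.294), and without naive replicate 2 it was 13.80, with an edgeR adjusted p of 0.0316. Both Ighv11-2 and Igkv14-126 were highest in allograft replicate 3 and next highest in replicate 2. In bulk RNA heavy and light V genes are counted apart, so whether they were joined in the same cells was not tested.

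Igkv4-91 (chromosome 6, 68768555 to 68769103, minus strand) is the light V gene of a second phosphatidylcholine-binding pair, whose heavy V gene is Ighv12-3. Igkv4-91 had no naive count and reached 3.11, 22.8, 18.0 and 14.0 CPM in allografts, at least 227-fold over the naive floor (edgeR adjusted p = 0.144, and 0.0433 without naive replicate 2). Ighv12-3, named here after its values were seen, held 0, 19, 11 and 8 counts. Allograft replicate 1 was the lowest for both.

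The germline coding sequences of these 3 V genes are shown because they belong to the pairs named above and recurred across allografts. They were read from GENCODE M21 transcripts on GRCm38, 5′ to 3′, and the last 300 coding bases of each are printed. Capitals mark the last in-frame TGT or TGC codon, a cysteine, and the bases after it, the part of the antigen-contacting loop CDR3 that the V gene gives. In a rearranged gene, joining trims or extends these ends.
Ighv11-2: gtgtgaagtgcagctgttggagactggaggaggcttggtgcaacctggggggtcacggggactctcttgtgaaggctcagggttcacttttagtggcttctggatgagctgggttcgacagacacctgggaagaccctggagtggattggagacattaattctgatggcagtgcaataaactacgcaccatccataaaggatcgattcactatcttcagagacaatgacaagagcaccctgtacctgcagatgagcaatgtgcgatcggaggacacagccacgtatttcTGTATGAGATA
Igkv14-126: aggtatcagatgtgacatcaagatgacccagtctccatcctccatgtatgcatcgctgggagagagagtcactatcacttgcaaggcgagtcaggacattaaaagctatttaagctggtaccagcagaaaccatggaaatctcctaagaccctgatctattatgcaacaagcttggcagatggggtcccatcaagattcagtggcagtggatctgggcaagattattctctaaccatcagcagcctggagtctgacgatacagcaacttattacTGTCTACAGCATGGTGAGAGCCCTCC
Igkv4-91: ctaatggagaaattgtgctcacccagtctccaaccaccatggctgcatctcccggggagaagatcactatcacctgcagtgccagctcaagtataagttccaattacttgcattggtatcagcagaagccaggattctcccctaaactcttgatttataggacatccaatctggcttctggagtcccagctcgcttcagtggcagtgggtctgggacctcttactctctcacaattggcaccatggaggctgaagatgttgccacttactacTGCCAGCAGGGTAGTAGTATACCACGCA
Ighv11-2 ends with 11 bases in capitals, against 26 and 28 bases in the kappa genes. Over 353 bases Ighv11-2 differs from its neighbour Ighv11-1 at 4 (98.9% identity). Ighv11-1 held 0 counts in all libraries, and reads that fit both genes could have been assigned to either. The nearest V genes to Igkv14-126 and Igkv4-91 were 91.5 and 87.2% identical.

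Other heavy V genes were mostly high in 1 library. Ighv1-5 (chromosome 12, 114513330 to 114513807) held 821 counts, or 26.3% of heavy V counts, in allograft replicate 1 and none in any other library. Ighv3-6 and Ighv9-2, named after their values were seen, followed in the same library with 466 and 308 counts, and Ighv9-2 had none elsewhere. Ighv1-81 (chromosome 12, 115920279 to 115920712) was spread more widely, at 6.27, 0.278, 3.35 and 3.40 CPM, and led in allograft replicate 4 (edgeR adjusted p = 0.171). In naive replicate 1 all 210 heavy V counts lay in Ighv1-74 (106 counts) and Ighv1-84 (104 counts, named after its values were seen). The allografts held none of either, except 9 counts of Ighv1-74 in replicate 4. Naive replicate 2 held 7 counts of Ighv9-1, which gave 5, 0, 0 and 11 counts in allografts. The same library held 9 counts of Ighv1-47, which missed the member threshold.

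**Figure D4:**
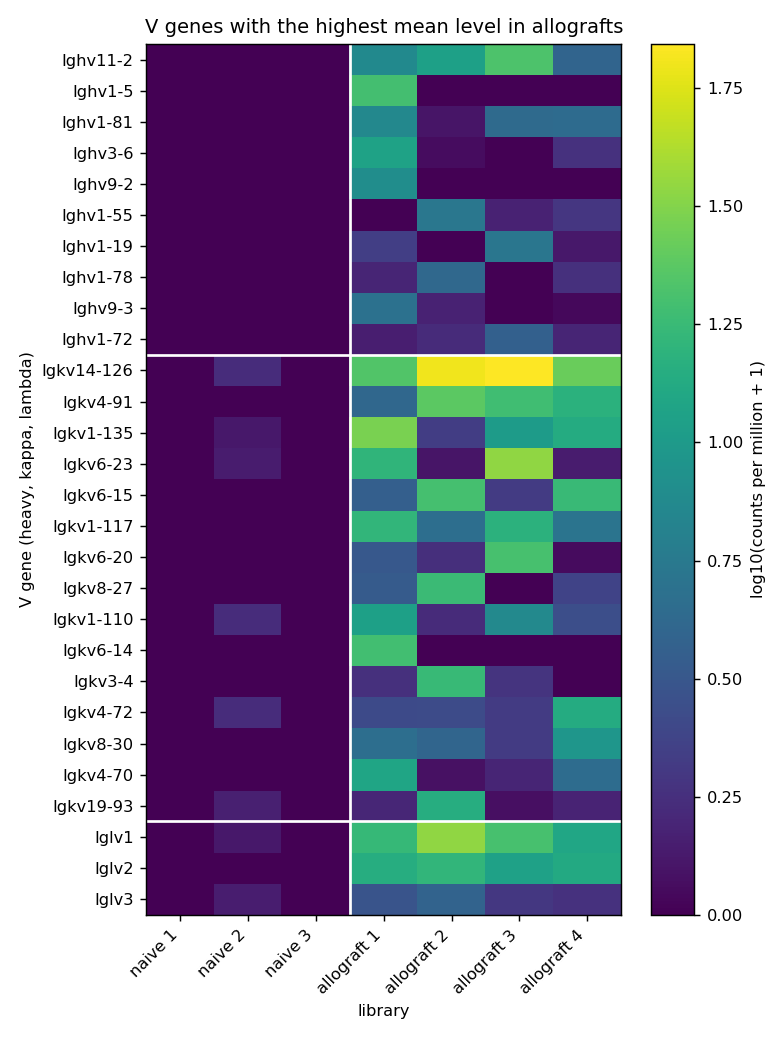
Level of the 10 heavy V, 15 kappa V and 3 lambda V genes with the highest mean in allografts, as log10(CPM + 1), in each of the 7 libraries. Ighv11-2, Igkv14-126 and the lambda genes Iglv1 and Iglv2 are read in every allograft, while Ighv1-5 is read in allograft replicate 1 alone.

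Sharing between allografts differed between heavy and kappa V genes. With at least 10 counts as the criterion, 2 heavy V genes were read in all 4 allografts, 7 in 3, 15 in 2 and 26 in 1. The first 2 were Ighv11-2 and Ighv1-72, the latter named after its values were seen. For kappa V genes the numbers were 17, 25, 20 and 13. Heavy V genes read in 1 allograft only gave 49.2% of heavy V counts in replicate 1 and 14.2, 16.8 and 6.16% in replicates 2 to 4, and the kappa V genes of that kind gave between 1.03 and 10.3%. Heavy V counts were fewer, at 552 to 3121 per allograft against 4177 to 9945 for kappa V, and a threshold of 10 counts is harder to reach at lower depth.

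At equal depth more kappa V than heavy V genes were still read in each allograft. Thinned to 576 V counts per library, allografts were expected to show 40.9, 29.3, 23.3 and 28.0 heavy V genes and 53.9, 46.0, 45.4 and 45.4 kappa V genes. These numbers cover all V genes of the table, also those below the member threshold. Allograft replicate 1 held the most genes for both chains. Of the V genes described, 3 heavy and 1 kappa are annotated as pseudogenes. Naive replicate 2 had 255 kappa V counts in 10 genes, each with at least 14 counts, where the allografts thinned to 255 counts were expected to show 43.2, 36.7, 36.9 and 36.7 genes.

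Of the other kappa V genes, Igkv1-135 (chromosome 6, 67609713 to 67610508) led in allograft replicate 1. It was at 0, 0.308 and 0 CPM in naive libraries and at 28.5, 1.17, 9.28 and 12.5 CPM in allografts (edgeR adjusted p = 0.362). Its difference of 6.41 on the log2 scale was 12.02 without naive replicate 2 (edgeR adjusted p = 0.0618). Igkv17-127 (chromosome 6, 67861153 to 67861659) led in naive replicate 2 with 37 counts. Its 0.813 CPM there came close to the 1.14, 1.30, 2.30 and 1.13 CPM of the allografts (edgeR adjusted p = 0.847). Without that library the difference was 8.88 in place of 1.86 on the log2 scale (edgeR adjusted p = 0.0502). Igkv6-14, named after its values were seen, held 800 counts in allograft replicate 1 and none in the other 6 libraries.

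Only 3 lambda V genes exist in the table, and all were read in each allograft. Iglv1 (chromosome 16, 19085017 to 19085500) was at 0, 0.308 and 0 CPM in naive libraries and 16.3, 33.7, 19.5 and 11.4 CPM in allografts (edgeR adjusted p = 0.277). Its difference of 7.06 on the log2 scale was 12.66 without naive replicate 2, the one naive library with a count, and then passed (edgeR adjusted p = 0.0316). Iglv2 (chromosome 16, 19260401 to 19260859) had no naive count and stood at 13.1, 15.4, 10.4 and 12.3 CPM, at least 201-fold over the naive floor (edgeR adjusted p = 0.144, and 0.0252 without naive replicate 2). Iglv3 (chromosome 16, 19241207 to 19241690) was the rarest, at 0, 0.396 and 0 CPM against 2.00, 2.84, 1.00 and 0.825 CPM (edgeR adjusted p = 0.718). Without naive replicate 2 its difference was 9.06 in place of 3.08 on the log2 scale (edgeR adjusted p = 0.0569). Iglv2 varied little between allografts, and in all 3 genes the lowest allograft exceeded the naive libraries. Lambda V genes took 14.3, 17.2, 11.3 and 14.6% of light V counts in allografts and 11.1% in naive replicate 2 (95% Wilson interval 8.01 to 15.3%), so these shares overlapped.

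The coding sequences of Iglv1 and Iglv2 are printed because their reads are hard to tell apart. Of 351 coding bases 11 differ (96.9% identity, GENCODE M21, GRCm38), and capitals mark the 8 of them that lie in the last 300 bases, which are printed 5′ to 3′.
Iglv1: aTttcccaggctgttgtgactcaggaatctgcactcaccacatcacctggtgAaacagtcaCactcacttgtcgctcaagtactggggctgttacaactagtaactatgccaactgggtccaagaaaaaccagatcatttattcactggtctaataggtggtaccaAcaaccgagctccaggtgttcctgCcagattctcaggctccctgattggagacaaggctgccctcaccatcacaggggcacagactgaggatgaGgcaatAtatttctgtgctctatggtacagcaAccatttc
Iglv2: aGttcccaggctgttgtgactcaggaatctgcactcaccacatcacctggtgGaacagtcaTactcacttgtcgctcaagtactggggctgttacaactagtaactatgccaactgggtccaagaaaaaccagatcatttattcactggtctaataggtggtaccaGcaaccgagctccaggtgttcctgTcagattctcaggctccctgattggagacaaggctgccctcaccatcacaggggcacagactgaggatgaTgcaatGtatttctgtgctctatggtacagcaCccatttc
The differences are spread along the gene. Reads between them fit both genes, so the split between Iglv1 and Iglv2 is less certain than their sum.

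Genes of the B cell receptor and of B cell identity were examined beside the immunoglobulin genes. Of 18, 17 were tested, and 0 passed in either direction with edgeR. The mean was higher in allografts for 11 and lower for 6. At an unadjusted p below 0.05, 5 were higher (29.4%, against 6.41% of all tested genes) and 0 lower, and the median difference was 2.43 on the log2 scale against -0.01 over all tested genes. Some of these genes had no naive count and entered the test only through the allografts. The list was also written with earlier results of these data known, so this share and median support nothing further. Ms4a1, which encodes CD20, was at 0 in all naive libraries and at 34.1, 13.6, 25.0 and 23.1 CPM in allografts (edgeR adjusted p = 0.111, and 0.0234 without naive replicate 2). The groups did not overlap. The 6 genes with a lower allograft mean, named after their values were seen, were Blnk, Cr2, Spib, Ebf1, Bank1 and Cd72, with differences from -3.07 to -0.14 on the log2 scale. Ebf1, a transcription factor of early B cells, was at 0, 18.0 and 0 CPM in naive libraries and at 4.50, 3.95, 2.69 and 2.40 CPM in allografts. Its difference of -1.40 became 10.09 without naive replicate 2 (edgeR adjusted p = 0.0433).

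Cd79a and Cd79b encode the signalling chains of the B cell receptor. Cd79a was at 0.264, 3.45 and 0 CPM in naive libraries and at 36.4, 25.8, 30.1 and 21.1 CPM in allografts (edgeR adjusted p = 0.513). The difference of 3.97 on the log2 scale was 7.66 without naive replicate 2 (edgeR adjusted p = 0.0539). Cd79b behaved otherwise, with 117 CPM in naive replicate 1, 1.41 and 0 CPM in the other naive libraries and 47.7, 43.3, 37.2 and 34.6 CPM in allografts. Its groups overlapped, and the sign of its small difference (0.05 on the log2 scale) turned in 5 of 13 alternatives. Pax5, the transcription factor of B cell identity, was at 0 in naive libraries and at 2.50, 1.64, 0 and 4.19 CPM in allografts (edgeR adjusted p = 0.341).

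Plasma cell genes gave a mixed picture. Of 18, 17 were tested and 0 passed in either direction with edgeR. The mean was higher in allografts for 9 and lower for 8. At an unadjusted p below 0.05, 5 were higher (29.4%, against 6.41% of all tested genes) and 0 lower, and the median difference was 0.33 on the log2 scale. Of the list, 3 genes (Mzb1, Derl3 and Pou2af1) had no naive count and entered the test only through the allografts. The list was also written with earlier results of these data known, so this share supports nothing further. Mzb1, a chaperone of antibody assembly, was at 0 in naive libraries and at 8.84, 12.0, 12.3 and 5.57 CPM in allografts (edgeR adjusted p = 0.144, and 0.0344 without naive replicate 2). Irf4, a transcription factor of plasma cells that other lymphocytes also use, was at 3.17, 1.17 and 0 CPM against 45.5, 56.8, 41.5 and 55.8 CPM (edgeR adjusted p = 0.306). Both were higher in each allograft than in any naive library.

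Surface markers of plasma cells differed among themselves. Sdc1, which encodes CD138, was at 0, 16.7 and 0 CPM in naive libraries and at 1.23, 2.07, 0 and 0.344 CPM in allografts. Tnfrsf17, which encodes the survival receptor BCMA, reached 0.110 CPM in naive replicate 2 and 2.10 CPM in allograft replicate 2 and had no count elsewhere. Slamf7, a surface receptor named after its values were seen, was at 0, 0.791 and 0 CPM in naive libraries and at 23.7, 21.7, 26.3 and 17.8 CPM in allografts, without overlap (edgeR adjusted p = 0.358, and 0.0198 without naive replicate 2). Cd38, named likewise, ranged from 4.54 to 38.2 CPM in naive libraries and from 7.56 to 25.9 CPM in allografts. Prdm1 and Xbp1, transcription factors of antibody secretion that other lymphocytes also use, overlapped between groups (edgeR adjusted p = 0.872 and 0.871): Prdm1 ranged from 4.75 to 37.6 CPM in naive libraries and from 26.0 to 43.6 CPM in allografts. Xbp1 ranged from 46.2 to 71.3 CPM and from 39.5 to 81.4 CPM. Without naive replicate 2 the difference on the log2 scale moved from 0.48 to 0.03 for Prdm1 and from -0.33 to -0.04 for Xbp1.

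**Figure D5:**
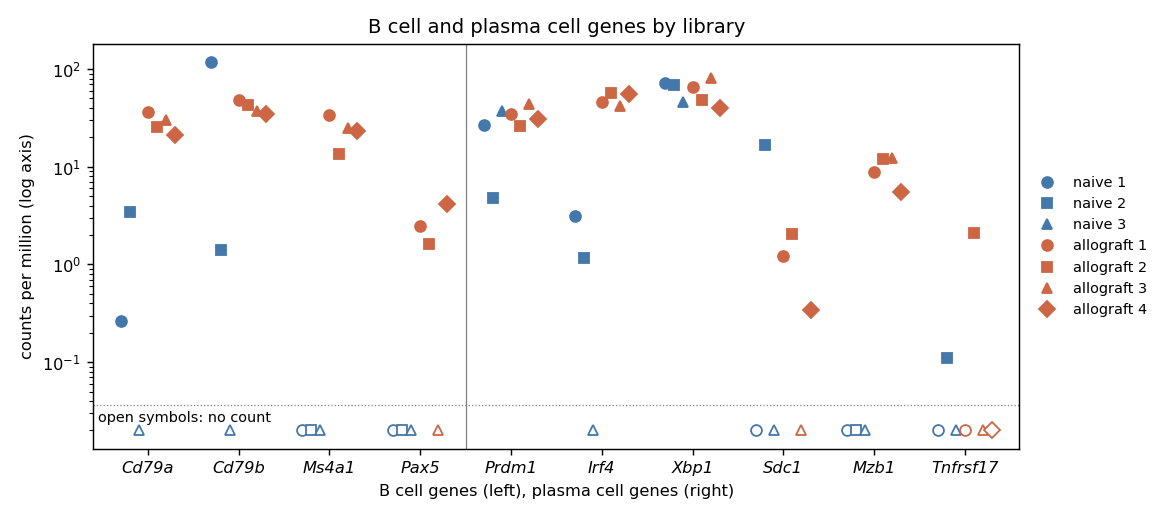
CPM (log axis) of 4 B cell genes, left of the line, and 6 plasma cell genes, right of it, 1 symbol per library, naive in blue and allograft in red, open symbols for no count. Ms4a1 and Mzb1 are at 0 in all naive libraries and present in all allografts, whereas Sdc1 is highest in naive replicate 2 at 16.7 CPM.

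Genes of recombination and class switching were mostly not read. Of 8, 2 were tested, of which 0 passed with edgeR and 1 was higher at an unadjusted p below 0.05. Rag1 and Rag2, which encode the recombinase, Dntt, the enzyme that adds bases at joints, and Igll1, a chain of the surrogate light chain, had no count in any library. Vpreb3, a pre-B cell receptor partner, was at 0 in naive libraries and at 1.95, 1.63, 1.25 and 2.41 CPM in allografts (edgeR adjusted p = 0.144, and 0.0448 without naive replicate 2). Vpreb1 of the same list, named after its values were seen, went the other way and did not enter the test. It was at 0, 6.13 and 0 CPM in naive libraries and at 0.250, 0.0617, 0.0489 and 0 CPM in allografts. Of 9 genes of antibody transport and Fc receptors, 7 were tested and 0 passed, also at an unadjusted p below 0.05. Trim21, an antibody receptor of the cytosol, had the smallest p (edgeR adjusted p = 0.714).

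Summed marker levels of other cells overlapped between the groups for each of the following 5 lists. Summed CPM were 21.2 to 204 in naive libraries and 150 to 204 in allografts for the Fc and transport genes, 33.9 to 809 and 483 to 565 for 9 T cell genes, and 15.2 to 488 and 223 to 327 for 9 myeloid and dendritic genes. For 18 B cell genes they were 118 to 392 and 317 to 442, and for 18 plasma cell genes 590 to 2213 and 1810 to 1858. Of these lists and the 11 ILC2 genes and 7 eosinophil, mast cell and basophil genes, 1 gene passed the test, the eosinophil granule gene Prg2. Single markers in these lists did separate the groups, and those given here were named after their values were seen, except Flt3. Flt3, a receptor of dendritic cell precursors, was at 0, 1.38 and 0 CPM in naive libraries and at 27.2, 16.3, 22.5 and 26.7 CPM in allografts (edgeR adjusted p = 0.478, and 0.0221 without naive replicate 2). Ly6d was at 0, 7.10 and 3.88 CPM against 50.7, 36.3, 24.1 and 35.6 CPM (edgeR adjusted p = 0.638), and Cd3g, a chain of the T cell receptor complex, at 79.0, 6.00 and 124 CPM against 219, 196, 182 and 175 CPM (edgeR adjusted p = 0.618). In the B cell list the allograft sum came mostly from Cd37 (162 to 256 CPM) and Cd72 (41.0 to 56.0 CPM), whose groups overlapped. In the plasma cell list it came mostly from Hsp90b1 (651 to 786 CPM), without overlap, and Sec11c (595 to 698 CPM), with overlap. In the T cell list it came mostly from Lat (282 to 318 CPM) and Cd3g, and in the myeloid list from Lyz2 (122 to 191 CPM). These sums therefore say little on the rarer genes of each list. The part of other cells in the immunoglobulin counts was not tested.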

How the data were processed

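The authors deposited whole-number counts and FPKM (fragments scaled to gene length and depth) for 55335 genes in 7 libraries. Per the submitters' processing notes, FastQC 0.11.5, STAR 2.5.3a, StringTie 1.3.1c, DESeq2 1.16.1 and the build mm10 were used; the counting tool, annotation and use of strand are not given in the sources used here. cDNA was amplified from full-length transcripts without stated molecular identifiers, so intervals and floors cover counting error only. How reads that span V, D and J segments or carry mutations were aligned is not stated, and such reads can be lost or assigned to a near-identical V gene. Nothing ties replicate numbers to a shared batch or animal.

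Levels are CPM of the deposited library total. The test was edgeR 4.0.16 (R 4.3.3), quasi-likelihood, TMM, filterByExpr, all 7 libraries, no covariate, Benjamini-Hochberg over 17015 genes at 0.05, checked on simulated data. The floor of a gene without naive counts is 3 counts per library. Alternatives were DESeq2 1.42.0 (size factors, Wald test), no filter, a mean of at least 50 counts, the replicate block, limma 3.58.1 on log2(FPKM + 0.1), a member threshold of 30 counts, other denominators and leaving out each library. All 143 genes matched GENCODE M21 (GRCm38, the assembly of mm10), which gave coordinates and sequences.

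Named were all constant genes and Jchain, in each V group up to 3 genes with the highest allograft mean and the leading gene of each library, the gene with the smallest p or up to 3 called genes of each list, and a fixed set of B and plasma cell genes, of which some are not reported here. The members and lists were chosen with earlier results of these data known. Klrg1, Cd6 and Flt3 had the smallest p of the ILC2, T cell and myeloid lists and none passed.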

Additional observations from a re-analysis of the deposited data

Results flagged for a closer look

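In 42 values examined over the 4 allografts, 6 had 1 library whose distance from the others exceeded Dixon's critical value. For independent, normally spread values chance flags about 1 in 20 groups, or 2.1 of 42. The values here were not of that kind, so the 2 numbers cannot be compared. Igha was flagged by level and by share. Ighv1-5, Ighg2c and Ighv1-74 were at 0 in all other allografts, where any count is flagged. Igha was at 152.9 CPM in allograft replicate 1, against 42.0 to 54.4 CPM in the others, and its share of heavy constant counts was 30.8% there, against 12.2 to 15.4%. Ighv1-5 was at 18.6 CPM in the same library and at 0 in the others. Ighg2c was at 5.36 CPM in allograft replicate 3 and at 0 in the others. Igkv17-127 was at 2.30 CPM in allograft replicate 3, against 1.13 to 1.30 CPM. Ighv1-74 was at 0.309 CPM in allograft replicate 4 and at 0 in the others, which is 9 counts.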

How the results depend on the processing

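In place of 1 member called higher in allografts, the DESeq2 Wald test called 47, limma on log2(FPKM + 0.1) called 23 and the fit with the replicate number as a block called 0. Leaving out 1 library gave 0 to 13: naive replicate 2 left out gave 13, naive replicate 1 gave 3, and each allograft gave 0. No member was called lower in any of these fits. Of the B cell, plasma cell, recombination and Fc genes (18, 18, 8 and 9 listed), 0 passed in the main analysis, 8 with the DESeq2 Wald test, 8 with limma and 0 to 11 with 1 library left out (11 when naive replicate 2 was dropped, 2 when naive replicate 1 was). Of all genes, 4.63% were called higher with the DESeq2 Wald test and 1.15% with limma. Without naive replicate 2 it was 3.0%, and without naive replicate 1 it was 0.51%. Deviations of same-numbered libraries from their group means correlated at r = 0.0169, -0.0196 and 0.0360 over 17015 genes. Not every library correlated best with its own number. With groups of 3 and 4 libraries, such correlations cannot decide whether the replicate numbers pair the libraries.

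On the log2 scale, the allograft to naive ratio of the summed kappa V level was 6.38 without mitochondrial counts and 6.21 with TMM-scaled totals in place of 6.79, that of lambda V was 6.63 with TMM-scaled totals in place of 7.21, and that of the constant genes was 3.62 from summed FPKM in place of 2.60. With 1 library left out these ratios ranged from 4.40 to 9.15 for heavy V, from 6.20 to 11.68 for kappa V, from 6.62 to 9.11 for lambda V and from 2.16 to 3.23 for constant genes. The upper kappa and lambda values, without naive replicate 2, are lower bounds against 3 counts per library. The upper heavy V value rests on 7 counts of naive replicate 2, which held 16 heavy V counts in all. With at least 30 counts as the threshold, 104 members remained, 66 of them tested.

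Over these fits the sign turned for 0 of 71 tested members and for 30 of 73 tested list genes, 15 of them when naive replicate 2 was dropped (Fcgrt from -1.85 to 2.09, for example). Of the 143 members, 121 had no naive count, and the sign of those could not turn. Tested members with naive counts, such as Ighm and Igkc, could have turned and did not. All members were taken from a group picked as high in allografts, so the 0 supports nothing further. Among the genes named by rule, the sign turned for Sdc1 and Cd79b. Sdc1, at -3.20 on the log2 scale, was 0.75 with the replicate block and ranged from -3.99 to 8.19 with 1 library left out, positive when naive replicate 2 was dropped. Cd79b, at 0.05, was -0.0027 with DESeq2 size factors, -0.016 with the DESeq2 Wald test and between -0.54 and 5.31 with 1 library left out. It was negative when naive replicate 2 or 3 (both -0.54) or allograft replicate 1 (-0.056) was dropped. The cause of these changes was not tested.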
